A study of Mus musculus with 294 samples.

Results

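The livers described here are the 69 of 294 in which Glo1, the gene of glyoxalase 1, gave the lowest signal. The members were selected on the measured level of Glo1 itself: its brighter probe read at most 11.47 on the log2 intensity scale in them and at least 11.55 in the remaining 76.5%, which formed the comparison. All are livers of F2 mice from a B6/J x A/J cross, with total RNA of 1 liver on 1 Affymetrix array each. The labels give no treatment, sex, age, diet or genotype, so the 2 classes rest on the values of a single probe and no animal was assigned a genotype or a sex. The titles number each F2 animal separately, and an F2 animal carries a mixture of both parental genomes.

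Glyoxalase 1 is a cytosolic enzyme that turns the adduct of glutathione and methylglyoxal, a reactive by-product of glycolysis, into S-D-lactoylglutathione. Glyoxalase 2, encoded by Hagh, then releases D-lactate and returns the glutathione. Methylglyoxal that is not removed modifies arginine and lysine residues of proteins. In mice, Glo1 lies on chromosome 17, not far from the major histocompatibility complex (MHC), and a segment that includes it is present in extra copies in some inbred strains, A/J among them.

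The promoter of Glo1 is shown because this gene defines the classes. RefSeq gives it on the minus strand of chr17:30612610-30612909 in GRCm38.p6, which is the C57BL/6J sequence. The window holds 250 bases before and 50 bases after the annotated start, and the capitals mark the 50 bases after it.
Glo1: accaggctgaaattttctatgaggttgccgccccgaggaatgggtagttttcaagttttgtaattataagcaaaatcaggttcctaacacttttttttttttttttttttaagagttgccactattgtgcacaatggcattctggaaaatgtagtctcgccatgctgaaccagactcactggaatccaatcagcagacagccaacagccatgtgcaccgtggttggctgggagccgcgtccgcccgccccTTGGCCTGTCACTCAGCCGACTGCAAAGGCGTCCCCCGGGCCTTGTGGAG
The binding motif of NRF2, a transcription factor that activates detoxification genes, was searched as TGACNNNGC on both strands. It had 0 matches in this window and at least 1 in 12.4% of 32851 RefSeq promoter windows of the same length.

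In the low class the Glo1 probe read from 10.72 to 11.47 with a median of 11.09, and in the other livers from 11.55 to 12.79 with a median of 12.11. The threshold sits in a gap of 0.08 log2 units, with 6 low and 5 other livers within 0.2 of it. The 3 livers just inside it read 11.40, 11.42 and 11.47, and the 3 just outside read 11.55, 11.59 and 11.62. The class means were 11.07 ± 0.16 (SD, n = 69) and 12.14 ± 0.26 (SD, in the others), a difference of 1.06 or 2.09-fold. These values chose the members and carry no test. A second, dimmer Glo1 probe was not used for the choice but measures the same gene: it ranged from 8.88 to 9.98 with a median of 9.30 in the low class and upwards of 9.21 with a median of 9.96 (SD 0.30) in the others, so the classes overlapped on it. Both probes tracked each other within each class (Pearson r = 0.83 in the low class and 0.87 in the others, as a description over livers that share the array).

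**Figure D1:**
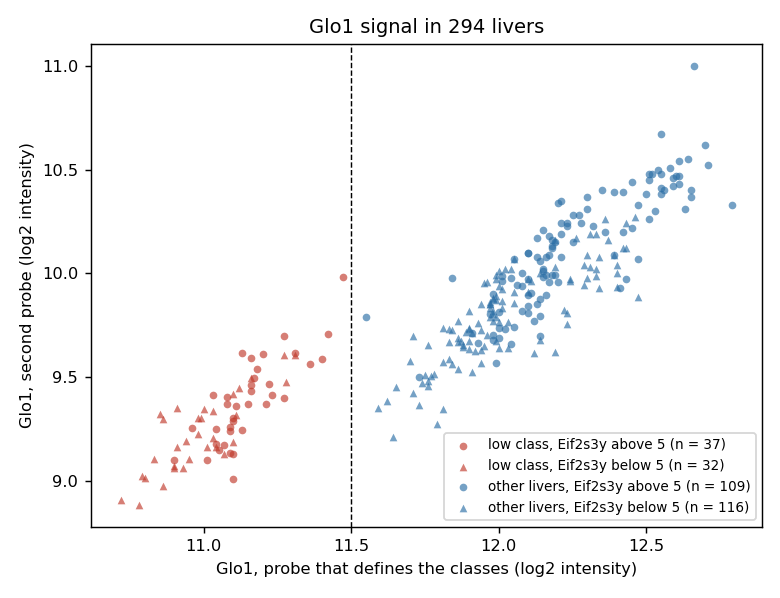
Log2 intensity of the Glo1 probe that defines the classes (x axis) against the second Glo1 probe (y axis) for each of 294 livers, with the class threshold as a dashed line; circles and triangles are livers above and below log2 5 for Eif2s3y. The low class lies at 10.72 to 11.47 on the x axis and overlaps the other livers on the y axis.

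The low class was spread over the study. Each of the 15 label blocks, groups of 17 to 23 animals that share the first 3 digits of their titles and whose meaning is not stated, held between 1 and 8 low livers. In 2 blocks there was 1 low liver. The difference of the class means for Glo1 was between 0.83 and 1.33 in the 15 blocks. Eif2s3y, a Y-linked gene, split both classes at log2 5: of all livers, 12.6% were low-class and above it (37 livers), 10.9% low-class and below it (32 livers), 37.1% other and above it, and 39.5% other and below it. In both classes Glo1 itself was brighter where Eif2s3y was above 5: the medians were 11.13 against 10.98 in the low class and 12.19 against 11.98 in the others.

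The arrays of both classes were alike in overall brightness, with array medians of 21.1 to 23.1 intensity units in the low class and 21.2 to 23.2 in the others. Of the 32 arrays that correlated least with the rest, 3 were low-class livers (4.35% of the low class) and 29 were others (12.9% of the other livers). The hepatocyte genes Alb, for albumin, and Ttr, for transthyretin, averaged 14.55 and 14.22 on the log2 scale over all livers, and neither passed the test between the classes (adjusted p = 0.925 and 0.992).

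The question was which other genes differed in livers with low Glo1. Differences are low class minus other livers on the log2 scale from limma, with Eif2s3y class and label block as covariates and p-values adjusted over 16642 genes by the Benjamini-Hochberg method; Glo1 is not among them. A gene is called at an adjusted p under 0.05. Of these, 0.931% were called, 82 higher in the low class (0.493%) and 73 lower (0.439%). Most of them lay on the chromosome of Glo1: 13.4% of its 775 other measured genes were called, against 51 of 15824 on the other chromosomes (0.322%). On chromosome 17, 60 genes were higher and 44 were lower in the low class, with a median size of 0.16 and 16 genes at 0.5 or more. All of them had the same sign above and below log2 5 for Eif2s3y, and 30 had the same sign in each of the 15 label blocks. Of the 51 called elsewhere, 48 and 1 did so. The calls were made in these same livers, so agreement in sign is partly set by the choice of genes. Fitted in livers above log2 5 alone, 92 of all genes were called (0.553%), and in those below it 53 (0.318%). No gene other than Glo1 separated the classes without overlap.

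Along chromosome 17 the called genes were not bunched at Glo1. In gene order, 56 lay before Glo1 and 48 after it, and the farthest was 490 measured genes after it. Of the 50 genes more than 100 and at most 150 places before Glo1, 20 were called (40%), and among the 18 at the start of the chromosome 8 were (44.4%). The shares were 8% in the 50 genes just before Glo1 and 10% in the 50 just after. They were 24% at 51 to 100 places after it, where class II MHC genes lie, 16% in the next 50 genes and 22% in the 50 after those. Beyond 300 places after Glo1, 4 genes were called. These 4 were Qpct, a glutaminyl cyclase gene, Morn2, the phosphatase gene Ppm1b and the cytokine signalling suppressor gene Socs5, all higher in the low class, by 0.41, 0.19, 0.08 and 0.10. In a fit over all probes, second probes gave 0.40 for Qpct (adjusted p = 0.000723), 0.06 for Ppm1b (0.752) and 0.09 for Socs5 (0.423). Socs5 kept its sign in 8 of 15 label blocks, and Qpct, Morn2 and Ppm1b in 13. The 4 genes were named after their values were seen.

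**Figure D2:**
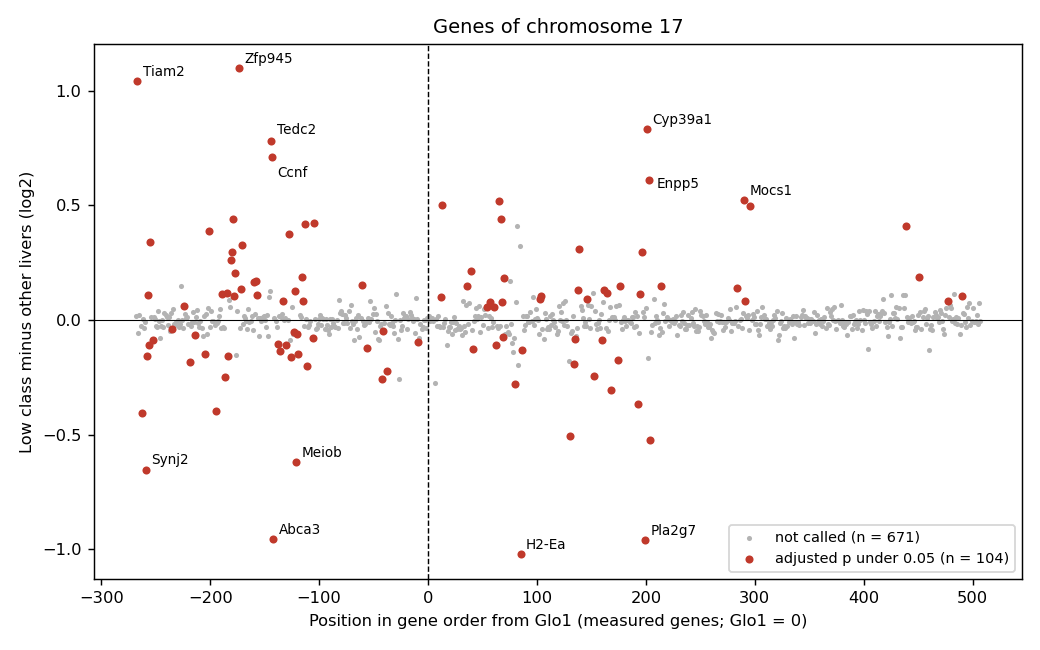
Difference between the low class and the other livers (log2, y axis) for the 775 measured genes of chromosome 17 by their place in gene order from Glo1 (x axis, dashed line at Glo1); red points are the called genes. Called genes lie on both sides of Glo1, 56 before and 48 after it, and 4 lie beyond 300 places after it.

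The nearest neighbours of Glo1 mostly did not pass the test. Among the 20 measured genes on either side, 3 of 40 were called, against 0.931% of all genes and 13.4% of chromosome 17. An unadjusted p under 0.05 was found for 9 of the 40 (22.5%), against 8.66% of all genes and 26.6% of chromosome 17; 14 of the 40 were dimmer than the array median. Btbd9, a BTB-domain gene next to Glo1 in order, averaged 6.73 in both classes (difference 0.01, 95% interval -0.03 to 0.05, adjusted p = 0.967). Zfand3, a zinc finger gene one place further, averaged 8.59 in the low class and 8.63 in the others (adjusted p = 0.488). On the other side, the dynein gene Dnah8 and the GLP-1 receptor gene Glp1r were near 3.45 and 3.35 in both classes, below the array medians, where a difference is hard to see. The cholesterol exporter gene Abcg1, 5 places after Glo1, averaged 7.06 and 7.08 (adjusted p = 0.995).

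The 3 called neighbours were Pde9a, Slc37a1 and Mtch1. Pde9a, which encodes a phosphodiesterase that degrades cGMP and lies 13 places after Glo1, ran from 5.38 to 7.25 with a median of 6.31 in the low class and from 4.53 to 6.94 with a median of 5.89 in the others. The ranges overlapped, and 65 of 69 low livers were above the median of the others. Its difference was 0.50 ± 0.06 (SE, adjusted p = 6.87e-13), with the same sign in 15 of 15 blocks. Slc37a1, a sugar-phosphate transporter gene, was 0.10 ± 0.03 higher (adjusted p = 0.0368; not called with label block left out, 0.0759, or as a random block, 0.0526), and Mtch1, a mitochondrial outer membrane gene, 0.09 lower (difference -0.09 ± 0.02, adjusted p = 0.00286).

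The most significant gene of all was Abca3, which encodes a lipid transporter known from the lamellar bodies of the lung, which precedes Glo1 in gene order and neighbours Ccnf. It read from 7.78 to 9.56 with a median of 8.55 in the low class and from 8.51 to 10.34 with a median of 9.53 in the others. Of the 69 low livers, 32 lay outside the range of the others, and 68 lay below their median. The difference was -0.96 ± 0.05 (SE), or 1.94-fold lower (adjusted p = 3.65e-54), with the same sign in 14 of 15 blocks. A second Abca3 probe gave -0.93 ± 0.05.

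H2-Ea, the alpha chain gene of the class II molecule I-E, was the gene with the largest difference in the lower direction on chromosome 17. C57BL/6 mice are known to carry a promoter deletion in this gene. In the low class it ran from 4.15 to 6.09 with a median of 4.63, close to the array medians, the highest of which was 4.53, and in the others from 4.24 to 8.62 with a median of 5.46. The low livers were tightly grouped (SD 0.27) and the others spread widely (SD 0.71), and 68 of 69 low livers were below the median of the others. The difference was -1.02 ± 0.09 (SE, adjusted p = 1.94e-22), and a second probe gave -1.86 ± 0.12.

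Further genes were lower in the low class. Pla2g7, for the plasma enzyme that hydrolyses platelet-activating factor, had medians of 5.23 (range 4.20 to 7.06) and 6.28 (range 3.82 to 8.67), and its difference was -0.96 ± 0.09 (adjusted p = 7.78e-21). Synj2, a phosphoinositide phosphatase gene near the start of the chromosome, had medians of 5.28 (range 3.79 to 5.84) and 5.76 (range 4.16 to 6.74), with a difference of -0.65 ± 0.05 (adjusted p = 4.23e-24). Both kept one sign in 15 of 15 blocks, and their second probes gave -0.91 and -0.69. Meiob, a gene of meiotic recombination, fell by 0.62 on the log2 scale (SE 0.06, adjusted p = 1.46e-16).

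Among the genes higher in the low class, Zfp945, a zinc finger gene listed as A630033E08Rik, had the largest difference. It ran from 4.69 to 6.67 with a median of 5.79 in the low class and from 3.21 to 6.29 with a median of 4.92 in the others, where many livers were dimmer than the array. The difference was 1.10 ± 0.08 (SE, 2.14-fold, adjusted p = 4.84e-27), and 66 of 69 low livers exceeded the median of the others. Tiam2, an activator gene of the small GTPase Rac, had medians of 5.30 and 4.42 and a difference of 1.04 ± 0.10 (adjusted p = 3.04e-17). The mean of its other livers, 4.21, lay below every array median, so no fold is given.

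Cyp39a1, which encodes the liver 7-alpha-hydroxylase of 24-hydroxycholesterol, had medians of 8.09 (range 5.73 to 9.83) and 7.48 (range 4.02 to 9.36). Its difference was 0.83 ± 0.10 (SE, 1.78-fold, adjusted p = 9.76e-12), with the same sign in 15 of 15 blocks, and 58 of 69 low livers exceeded the median of the others. The adjacent Tedc2, of a centriole complex, and Ccnf, for cyclin F, were higher by 0.78 ± 0.08 and 0.71 ± 0.07 (adjusted p = 5.04e-18 and 3.86e-18). Enpp5, an ectonucleotide pyrophosphatase family gene, was higher by 0.61 ± 0.07 (adjusted p = 2.8e-12), and Mocs1, of molybdenum cofactor synthesis, by 0.52 ± 0.05 (adjusted p = 1.79e-19).

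**Figure D3:**
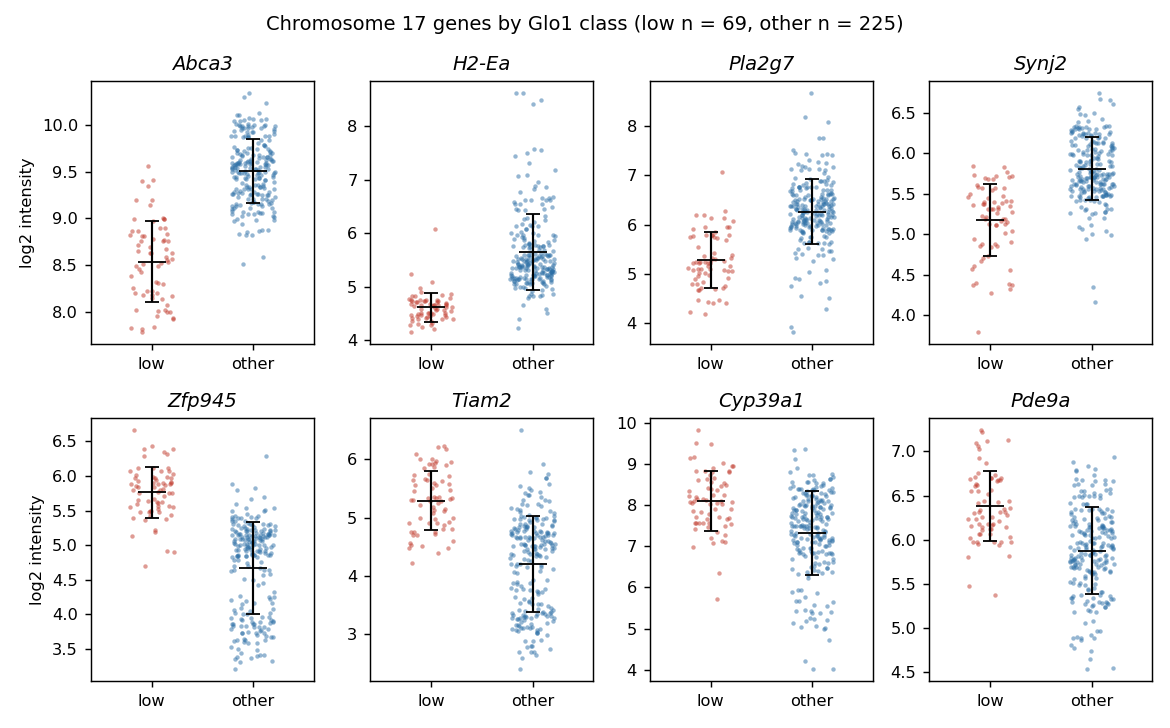
Log2 intensity (y axis) of 8 chromosome 17 genes in the 69 low-Glo1 livers and the others, 1 point per liver with the mean and SD as bars. Abca3, H2-Ea, Pla2g7 and Synj2 are lower and Zfp945, Tiam2, Cyp39a1 and Pde9a higher in the low class, and all the ranges overlap.

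A second probe was available for 42 of the called genes of chromosome 17. It had the same sign for 35 and was called the same way for 22, in a fit over 32638 probes in which 0.763% were called. For 5 genes it was called the opposite way. Gfer, a sulfhydryl oxidase gene of the mitochondrial intermembrane space, was 0.38 ± 0.03 higher by its brighter probe and gave -0.54 ± 0.03 by the other. Adgrf5, an adhesion receptor gene, gave 0.30 ± 0.03 and -0.43 ± 0.04. The others were Tulp4 (-0.11 and 0.57), Vars2 (0.09 and -0.31) and BC003965 (-0.08 and 0.09); the 5 were named after their values were seen. For these genes no direction of the gene as a whole is given. Probe sequences were not available, so strain differences in the bases under a probe could not be checked for any gene. A difference in RNA level and one in probe binding therefore cannot be told apart here.

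Within the glyoxalase pathway, 1 of 13 measured genes of methylglyoxal removal was called, and 3 of the 13 lie on chromosome 17; the shares called were 0.931% over all genes and 13.4% over that chromosome. Hagh, for glyoxalase 2, lies on chromosome 17 too, 120 places before Glo1. It read from 11.06 to 12.20 with a median of 11.65 in the low class and from 11.16 to 12.16 with a median of 11.73 in the others. The difference was small, -0.06 ± 0.02 (SE, adjusted p = 0.0189), 1.04-fold lower, and had the same sign in 12 of 15 blocks. Within either Eif2s3y class alone it did not pass (adjusted p = 0.582 above and 0.559 below log2 5).

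Other routes that clear methylglyoxal were not called. Akr1a1, an aldehyde reductase gene, differed by 0.02 (95% interval -0.0029 to 0.05, adjusted p = 0.674), and Park7, for DJ-1, by 0.02 (-0.01 to 0.06, adjusted p = 0.812). The aldehyde dehydrogenase gene Aldh1a1 differed by 0.05 (0.01 to 0.10, adjusted p = 0.435), and Ldhd, for D-lactate dehydrogenase, by 0.04 (-0.01 to 0.08, adjusted p = 0.752). Ager, the gene of the receptor for advanced glycation end products, was at 4.45 and 4.44 (adjusted p = 0.905). The list had a median difference of 0.01, against 0.001 over all genes.

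Glutathione synthesis, glycolysis, threonine and ketone metabolism and NRF2 target lists together held 46 measured genes, of which limma called 0, and with 0.931% of all genes called that count says little. An unadjusted p under 0.05 was found for 10 of the 46 (21.7%), against 8.66% of all genes. The smallest were those of Gpx1 (0.03 higher, p = 0.00374), Gclm (0.06 higher, p = 0.00563) and Ugdh (0.10 higher, p = 0.00918). Srxn1, Shmt1, Gldc and Nqo1 were also higher in the low class, and Cbs, Gcat and Aldoa were lower. Gclc, for the rate-limiting step of glutathione synthesis, averaged 10.89 in the low class and 10.91 in the others (adjusted p = 0.969). Gsr, for glutathione reductase, averaged 8.43 and 8.42 (adjusted p = 0.933), and the NRF2 target Nqo1 6.30 and 6.20 (adjusted p = 0.559). Cbs, for the first enzyme that takes homocysteine towards glutathione, lies 17 places after Glo1 and differed by -0.11 ± 0.04 (adjusted p = 0.368).

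In the MHC, class I genes and their helpers had 5 of 11 measured members called, all among the 10 that lie on chromosome 17, where 13.4% of genes were called (0.931% over all genes). H2-K1, a classical class I gene, ran from 11.99 to 12.93 with a median of 12.36 in the low class and from 10.91 to 13.04 with a median of 11.97 in the others, and 69 of 69 low livers were above the median of the others. Its difference was 0.44 ± 0.05 (SE, adjusted p = 3.31e-15), and a second probe gave 1.61 ± 0.18. H2-Q10, a class I gene secreted by the liver, was 0.31 ± 0.03 higher (adjusted p = 3.04e-17). Tap2, a subunit gene of the peptide transporter, was lower (difference -0.28 ± 0.04, adjusted p = 8.68e-08). H2-Q2 and H2-T24, both dimmer than the array medians, were 0.13 higher each. Some class I genes are near-identical copies, so probes may read more than 1 of them. The values of the H2 genes given here are therefore uncertain as to the gene.

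Of 11 class II genes, H2-Ea alone was called, with the values given above. H2-Ab1 and H2-Eb1, the beta chains of I-A and I-E, had differences of 0.41 ± 0.12 and 0.32 ± 0.11 that missed the threshold (adjusted p = 0.0651 and 0.16), and H2-Aa one of -0.20 ± 0.11 (adjusted p = 0.656), with 0.26 ± 0.11 by its second probe. Cd74, the invariant chain gene, lies on another chromosome and averaged 8.79 and 8.89 (adjusted p = 0.959).

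Over the metabolic and inflammatory lists of cholesterol synthesis, fatty acid synthesis, PPARA targets, acute phase and complement, 1 of 49 measured genes was called and 5 (10.2%) had an unadjusted p under 0.05, near the 0.931% and 8.66% over all genes. The called gene was Acadm, for the medium-chain acyl-CoA dehydrogenase, which was 0.09 ± 0.02 higher in the low class (adjusted p = 0.019). It lost the call in 7 of 14 alternatives, among them label block left out (adjusted p = 0.119) or as a random block (0.0543). All 11 cholesterol synthesis genes had differences below 0, from -0.22 for Sqle to -0.01 for Mvd, with a list median of -0.10; the smallest adjusted p, for Mvk, was 0.387.

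Among 65 measured markers of other cells and tissues in 11 lists limma called 0, against 0.931% of all genes, and 7 (10.8%) had an unadjusted p under 0.05, against 8.66%. The mean level of the pancreas markers was between 4.47 and 5.13 in the low livers but between 4.39 and 10.9 in the others, so the livers with high pancreatic genes were all in the comparison; their part in the results was not tested. Likewise the mean of neutrophil markers reached 5.12 in the low class and 9.93 in the others. Fewer cells of a type and less RNA per cell cannot be told apart in whole liver.

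**Figure D4:**
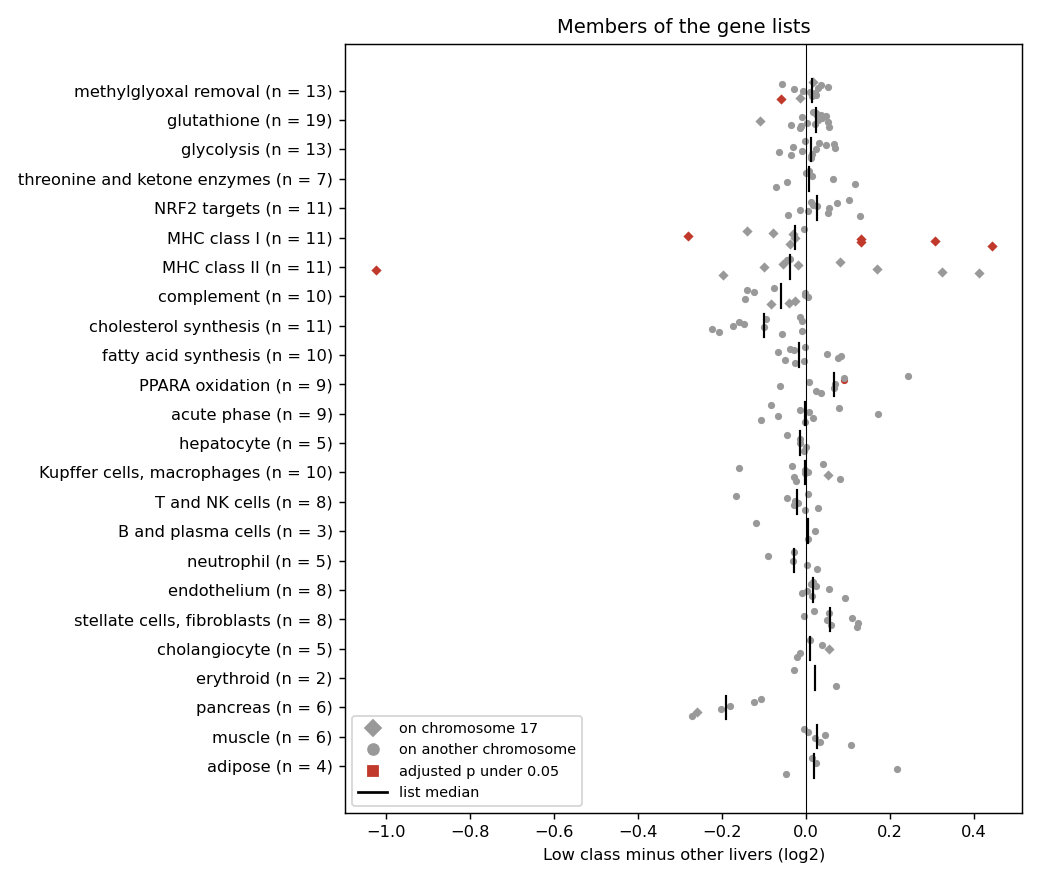
Difference between the low class and the other livers (log2, x axis) for each measured member of the 24 gene lists (rows, number measured in brackets), with the list median as a bar; diamonds are genes of chromosome 17 and red points are called genes. Of the 24 lists, those with a called member are methylglyoxal removal, MHC class I, MHC class II and PPARA targets.

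On the other chromosomes the differences were small: the 51 called genes had a median size of 0.10, and 1 reached 0.5. When p-values were adjusted over those chromosomes alone, 10 of the 51 calls were kept. The 10 kept were Prdx4, Rpl4, Rps24, Pcsk6, Rpl36a, Rpl22l1, Ednrb, Adgrg2, Glrx5 and Itih1, named after their values were seen.

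Ednrb, the endothelin B receptor gene, had medians of 6.29 (range 5.37 to 7.08) in the low class and 6.11 (range 5.12 to 6.92) in the others. Its difference was 0.19 ± 0.04 (adjusted p = 0.000696 over all genes and 0.00823 over the other chromosomes alone), and a second probe gave 0.20 ± 0.04. Prdx4, a peroxiredoxin gene of the endoplasmic reticulum, had medians of 10.18 in the low class and 10.32 in the others and was lower (difference -0.13 ± 0.03, adjusted p = 0.000216). Pcsk6, a proprotein convertase gene, was 0.13 ± 0.03 higher (adjusted p = 0.000481), with the same sign in 15 of 15 blocks. Glrx5, of mitochondrial iron-sulfur cluster assembly, was 0.09 ± 0.02 higher (adjusted p = 0.0022).

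Several of these genes encode ribosomal proteins. Rps24 ran from 10.56 to 11.24 with a median of 10.87 in the low class and from 10.52 to 11.54 with a mean of 10.99 in the others, a difference of -0.12 ± 0.02 (SE, adjusted p = 0.000101). Rpl4 differed by -0.07 ± 0.01 (adjusted p = 0.000199) and Rpl36a by -0.09 ± 0.02 (adjusted p = 0.000762). Over the 25 measured cytosolic ribosomal protein genes of other chromosomes, a set taken by symbol after the values were seen, 7 were called lower and 0 higher, against 0.322% of all genes of those chromosomes called in either direction. In this set 22 had a difference below 0, and the median difference was -0.06. Rps24, Rpl4 and Rpl36a, named above, are among its called genes. Its other calls, Rpl22, Rpl8, Rps15 and Rps21, were not kept when adjusted over other chromosomes alone. In livers below log2 5 for Eif2s3y alone, Rps24, Rpl4 and Rpl36a did not pass in limma (adjusted p = 0.633, 0.503 and 0.726). Above it Rpl4 did not pass (0.0623), while Rps24 and Rpl36a did (0.00172 and 0.00911). No test was made of the set.

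The remaining genes of largest size included ones that depend on Eif2s3y class. Cyp2b13, a P450 gene known to be higher in female mouse liver, had the largest difference off chromosome 17, 0.68 ± 0.17 (SE, adjusted p = 0.0121). It was bright in livers below log2 5 for Eif2s3y (medians 11.84 in the low class and 11.64 in the others) and much lower above it (medians 6.63 and 5.32). It did not pass within either class (adjusted p = 0.214 above and 0.498 below), and its sign was the same in 8 of 15 blocks. Adgrv1, an adhesion receptor gene, was 0.33 ± 0.08 higher (adjusted p = 0.00909) though its second probe gave 0.003, Inhbb, an activin subunit gene, 0.26 ± 0.07 (adjusted p = 0.0313), and Fitm1, a lipid droplet gene, 0.25 ± 0.07 (adjusted p = 0.0368). F11, for coagulation factor XI, was lower (difference -0.16 ± 0.04, adjusted p = 0.0416). The other calls of largest size were Themis (0.25), Adgrg2 (0.20), Btnl9 (0.18) and Pmm1 (0.16), all higher, and Rpl22l1, which was lower (-0.19); Themis and Adgrg2 were dimmer than the array medians. Second probes gave 0.03 for Adgrg2 and 0.04 for Btnl9, and with the median of all probes their differences were 0.12 and 0.11 and were not called (adjusted p = 0.102 and 0.189). Calls were lost in 8 of 14 alternatives for each of Btnl9, F11 and Fitm1, in 7 of 13 for Pmm1 and in 6 of 13 for Inhbb.

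Whether the difference between the Glo1 classes itself depended on Eif2s3y class was tested with an interaction term. It was called in 2 of 16642 genes (0.012%), neither on chromosome 17, while 1677 had an unadjusted p under 0.05. Cfd, for the complement protease adipsin, had medians of 5.59 in the 37 low livers and 4.41 in the others above log2 5, and of 3.74 and 3.79 below it. Tent4a, a terminal nucleotidyltransferase gene listed as Pols, had medians of 6.44 and 6.65 above log2 5 and of 6.83 and 6.78 below it. The ranges of the classes overlapped in both genes, above log2 5 (3.70 to 8.80 against 3.07 to 8.66 for Cfd) as well as below it.

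**Figure D5:**
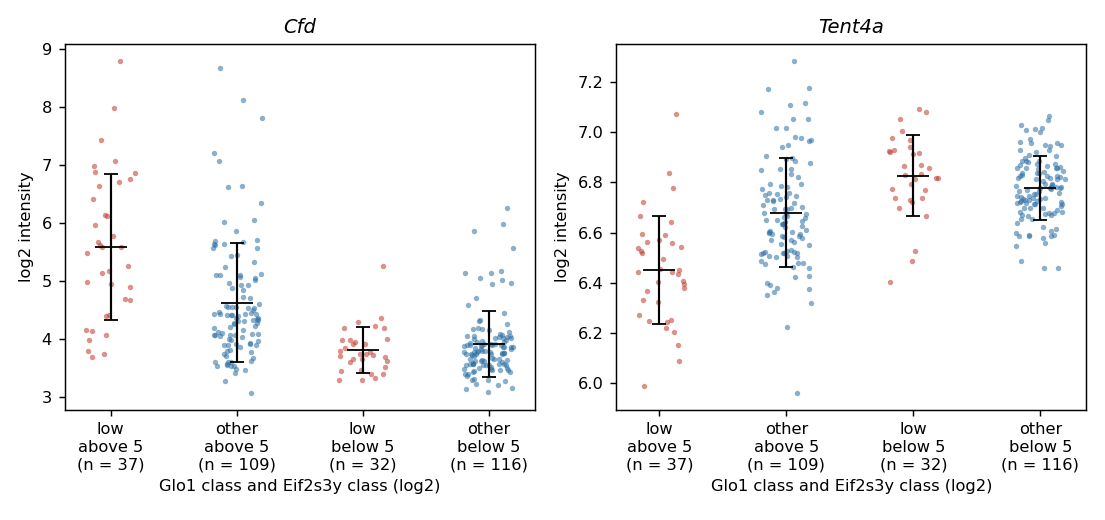
Log2 intensity (y axis) of Cfd and Tent4a in the 4 combinations of Glo1 class and Eif2s3y class (x axis), 1 point per liver with the mean and SD as bars. Above log2 5 for Eif2s3y the low livers have higher Cfd (median 5.59 against 4.41) and lower Tent4a (6.44 against 6.65).

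Finally, the genes most like Glo1 were sought among the other livers, which hold no low-class liver, as Pearson r over livers that share label blocks. The 6 genes of highest absolute r were all on chromosome 17: Zfp945 (-0.68), Plcl2, a phospholipase C-like gene (-0.64), Cyp39a1 (-0.63), Enpp4, a second ectonucleotide pyrophosphatase family gene (0.57), Apom, for an apolipoprotein of HDL (-0.56), and the zinc finger gene Zfp994 (-0.56). This order depends on Eif2s3y class, with which Glo1 and several of these genes vary: Cyp39a1 averaged 6.70 above and 7.89 below log2 5 in these livers. With the class means removed, an alternative added after the values were seen, the 6 were Zfp945 (-0.69), Abca3 (0.68), Vps52, a gene of retrograde vesicle transport (-0.60), Tedc2 (-0.57), Zfp994 (-0.56) and Ccnf (-0.55), again all on chromosome 17. Abca3 had r = 0.40 without that step, and Apom went to -0.36 with it. Within the low class, with Eif2s3y class means kept, r was -0.06 for Zfp945, -0.34 for Plcl2 and -0.35 for Cyp39a1. It was 0.08 for Enpp4, -0.28 for Apom and -0.15 for Zfp994. For Abca3, Vps52, Tedc2 and Ccnf it was -0.30, 0.07, 0.49 and 0.45. Apom was not called between the classes (difference 0.08 ± 0.04, adjusted p = 0.482). Among the other livers, with class means removed, the median absolute r was 0.25 over called genes of chromosome 17, against 0.05 over all genes. For all but 1 of these called genes r was positive if the gene was lower in the low class and negative if it was higher. The same held for 8763 of all 16642 genes. For the 51 called genes elsewhere the median was 0.06 and r had such a sign in 44, or in 23 without that step. These r values use the same Glo1 probe that set the classes, and the genes were called on those classes. The agreement is therefore a description and no separate support for the calls. Such values over all measured genes of chromosome 17, called or not, are not given.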

How the data were processed

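Total RNA of 294 livers was measured on 1 Affymetrix array each. The deposited values are normalized intensities on a linear scale, 1 per probe set; the submitters' processing notes name RMA, with no version or setting given in the sources used here. They ran from 2.77 to 25519, so log2 was taken with no pseudocount or further scaling. Background was not measured, and the number of arrays limits the precision. Of 32640 probe sets, 25508 had 1 gene symbol, 0 several and 7132 none. Of 16788 symbols, 13916 were current in the RefSeq table (GRCm38.p6), 2830 were updated and 42 kept; the table served for names, chromosomes and gene order only. Where several probe sets shared a gene, the one with the highest mean over all arrays stood for it, which left 16643 genes. The low class is Glo1 below log2 11.5 (69 of 294).

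Low-class and other livers were compared with limma 3.58.1 (R 4.3.3; lmFit, eBayes with trend), with Eif2s3y class and label block as fixed terms, and p-values were adjusted by Benjamini-Hochberg. On simulated data of the same size the fit was checked for recovery of known shifts. The arrays of low correlation lie over 3 median absolute deviations below the median. Named genes were the called ones within 20 places of Glo1, the 12 largest calls on and off chromosome 17, called list members with Hagh, the 6 nearest to Glo1 by r, and interaction calls; others shown were chosen after their values were seen. The labels name separate animals, and p-values measure the spread between these livers. The classes and lists were chosen with earlier results of these data known.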

Additional observations from a re-analysis of the deposited data

Results flagged for a closer look

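The difference between low-Glo1 livers and the others depended on Eif2s3y class for Cfd and Tent4a by limma's interaction term. For Cfd it was 1.15 larger above than below log2 5 (SE 0.25, adjusted p = 0.0378): the class difference was 1.02 ± 0.23 above and -0.07 ± 0.10 below. Over the 9 alternative settings in which Cfd was tested, the interaction was called in 3, with adjusted p from 0.0381 to 0.255. For Tent4a the interaction was -0.26 (SE 0.05, adjusted p = 0.021): the class difference was -0.20 ± 0.04 above and 0.05 ± 0.03 below. It was called in 9 of 10 settings, with adjusted p from 0.00111 to 0.0503. Below log2 5, where the low class had 32 livers, Cfd was dimmer than the array medians in both classes. Of the 4 measured adipose markers, none was called above log2 5, where Cfd differed. Cidec, a lipid droplet gene, went the way of Cfd there, at 0.36 ± 0.15 (unadjusted p = 0.0224, adjusted p = 0.376), and at -0.01 ± 0.05 below. Retn, Lep and Adipoq differed by 0.08, 0.05 and 0.01 above log2 5 (adjusted p = 0.531, 0.574 and 0.989). Adipoq, Lep and Cidec were dimmer than the array medians, and the part of adipose tissue in the Cfd result was not tested.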

How the results depend on the processing

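Counts of called genes are given here as a percentage of the genes tested in the reported comparison. On chromosome 17 the share stayed within 1.5 times of the reported 13.4% in every alternative that used both Eif2s3y classes. In livers above or below log2 5 for Eif2s3y alone, with fewer arrays, it was 7.87% and 6.32%, the share over all genes was 0.553% and 0.318%, against 0.931%, and that on other chromosomes was 0.196% and 0.0253%. The share on other chromosomes, 0.322% as reported, also moved to 0.613% with a lower class threshold (63 low livers), 0.19% with a higher one (74 low livers) and 0.714% with 5 principal components, where the share over all genes was 1.46%. It was 0.0632% when adjusted over other chromosomes alone, an alternative added after the data were seen. The interaction, called in 2 genes, was called in 1 (0.00601%) without label block, with quantile normalization, with genes above the median mean, with the lower threshold, without the 32 arrays of low correlation and with the principal components. With the higher threshold limma called 0, where 1713 genes had an unadjusted p under 0.05. Of the named genes' values under the alternatives, 422 kept direction and side of the threshold, 72 lost the call and 2 reversed, both below log2 5: Cfd at -0.069 and Tent4a at 0.0457. No paired analysis was possible because the labels form a single group. The cause of these changes was not tested. Some alternatives also use fewer arrays or genes, and no comparison at equal size was made. Signals near the array medians limit what could be seen.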

Other observations

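Some genes of chromosome 17 varied less among the low-Glo1 livers than among the others. The SD of H2-K1 was 0.16 in the low class and 0.40 in the other livers, of H2-Q10 0.12 and 0.25, of H2-Ea 0.27 and 0.71, of Vps52 0.19 and 0.33, and of Zfp945 0.37 and 0.67. Abca3 varied more in the low class, with an SD of 0.43 against 0.34, as did Ccnf, with 0.65 against 0.54. All these SDs pool both Eif2s3y classes. For Abca3 the SD was 0.41 in the low class and 0.34 in the others above log2 5, but 0.26 and 0.29 below it. For H2-Ea it was 0.33 and 0.60 above log2 5, and 0.16 and 0.78 below it. These spreads were set side by side after the values were seen and were not tested.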
